A study of Mus musculus with 6 samples.

Results

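The genes of the Wnt pathway were examined in mouse corneas: the Wnt ligands, their Frizzled and other receptors, the intracellular relay, the nuclear partners of β-catenin and the secreted antagonists. Members were taken by gene symbol, as every row named Wnt or Frizzled with a number plus 27 named pathway genes, which gave 56 genes of 22007 in the count tables. Corneas came from male C57BL/6J mice in 2 groups, both labelled 12-Month. OFBI mice had been exposed awake to 1 blast in the open from a 350 g C-4 charge placed 3 m away, and their corneas were taken 12 months later. Naive mice are the comparison group, and the labels give neither their handling nor the age of the animals in either group. All samples carry the same batch number. Each group had 3 libraries, each made from pooled corneas, so a library is an average over a pool of eyes whose number is not stated.

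Wnt proteins are secreted, lipid-modified signals that bind Frizzled receptors on nearby cells. With the co-receptors LRP5 and LRP6 they stop a cytoplasmic complex of AXIN, APC and the kinase GSK3 from marking β-catenin for destruction, and β-catenin then enters the nucleus and acts with TCF factors. Other Wnt signals run through ROR and RYK receptors without β-catenin. In the ocular surface the pathway is known for its part in limbal stem cell maintenance, and loss of the antagonist DKK2 in mice is known to turn corneal epithelium towards a skin-like fate.

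Sequencing depth differed between the groups. The Naive libraries held 41971752 to 47809779 estimated counts and the OFBI libraries 1173472 to 3410476, a mean difference of 16.7 times. About 4 deposited counts appeared to stand for 1 fragment, so 3 fragments over the OFBI group, the least that could be told from 0, correspond to a CPM of 1.62, which is called the OFBI floor here. CPM is the share of a gene in the scaled library total in parts of 1e+06. Depth followed the group in every library, so an effect of depth and one of the injury cannot be told apart for any gene. This limit weighs most on genes near that floor. The defining genes of corneal epithelium (9 of 9), keratocytes (9 of 9) and corneal endothelium (6 of 6 in the tables) were all detected in both groups.

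After OFBI, 8 Wnt pathway genes rose and 2 were called lower. Those that rose were the ligand gene Wnt6, the receptor genes Fzd1, Fzd2 and Ror2, the relay genes Dvl1, Apc and Axin1, and the β-catenin cofactor gene Bcl9l. Fitted increases ranged from a log2 fold change of 0.68 for Axin1 to one of 2.61 for Fzd2. The receptor gene Ryk fell by 0.98 on the log2 scale, and Frzb, which encodes a secreted antagonist, was at 0 in all OFBI libraries. Since tissue from whole corneas was measured, fewer cells of a type and less RNA per cell cannot be told apart. Of the 56 genes, 48 passed the filter on low counts, and each call had a Benjamini-Hochberg adjusted p below 0.05 over all 13941 genes tested (edgeR quasi-likelihood test). The 8 higher calls are 16.7% of the 48, where 8.41% of all tested genes were called higher, and the 2 lower calls are 4.17%, where 10.4% of all tested genes were called lower.

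**Figure D1:**
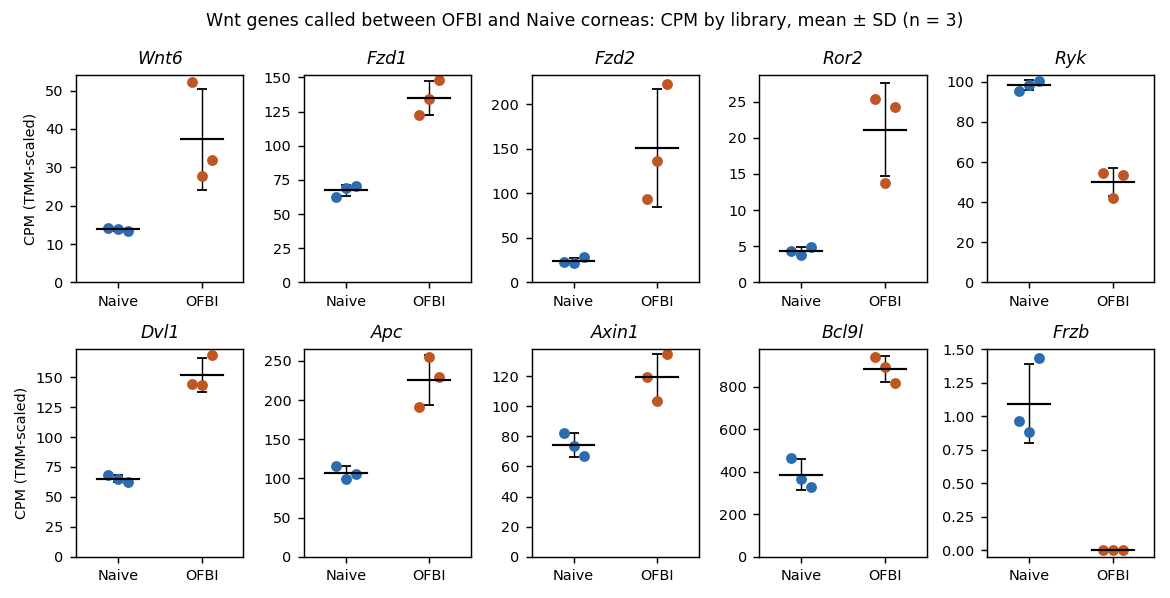
CPM of the 10 called Wnt genes in each library (points), with group means (bars) and SD (n = 3). In every panel the 3 OFBI libraries lie on 1 side of the 3 Naive libraries, as for 46.4% of all tested genes. The genes shown were picked by the test on these libraries, so this is no separate evidence. Fzd2 has the widest spread among the receptors after OFBI, from 93.4 to 224 CPM.

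Uncalled members also lay mostly above 0. The fitted log2 fold change was positive for 38 of the 48 tested genes, with a median of 0.43, while 40.9% of all tested genes were positive, with a median of -0.20. With library size as the only scaling the medians were 0.22 and -0.40. A change of scaling moves all genes by about the same amount. The distance of 0.62 between the medians could therefore hardly change, and its constancy tests nothing. All 3 OFBI libraries lay above all 3 Naive libraries for 24 of the 48 genes (16.4% of all tested genes) and below them for 6 (29.9% of all tested genes), together 30 where 46.4% of all tested genes were apart. An unadjusted p below 0.05 was reached by 25 of the 48 genes and by 32.9% of all tested genes, and an adjusted one by 10 of the 48 and by 18.8%. The transcripts of the 48 genes had a median GC content of 54.7%, those of all tested genes one of 50.0%, and those of the 8 that rose one of 57.8%. After correction for GC content and exon length in each library, 10 genes were called (14.9% of all tested genes). Of the calls above 7 were among them, without Wnt6, Axin1 and Bcl9l, and Dkk3, Gsk3b and Wnt5a were added.

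**Figure D2:**
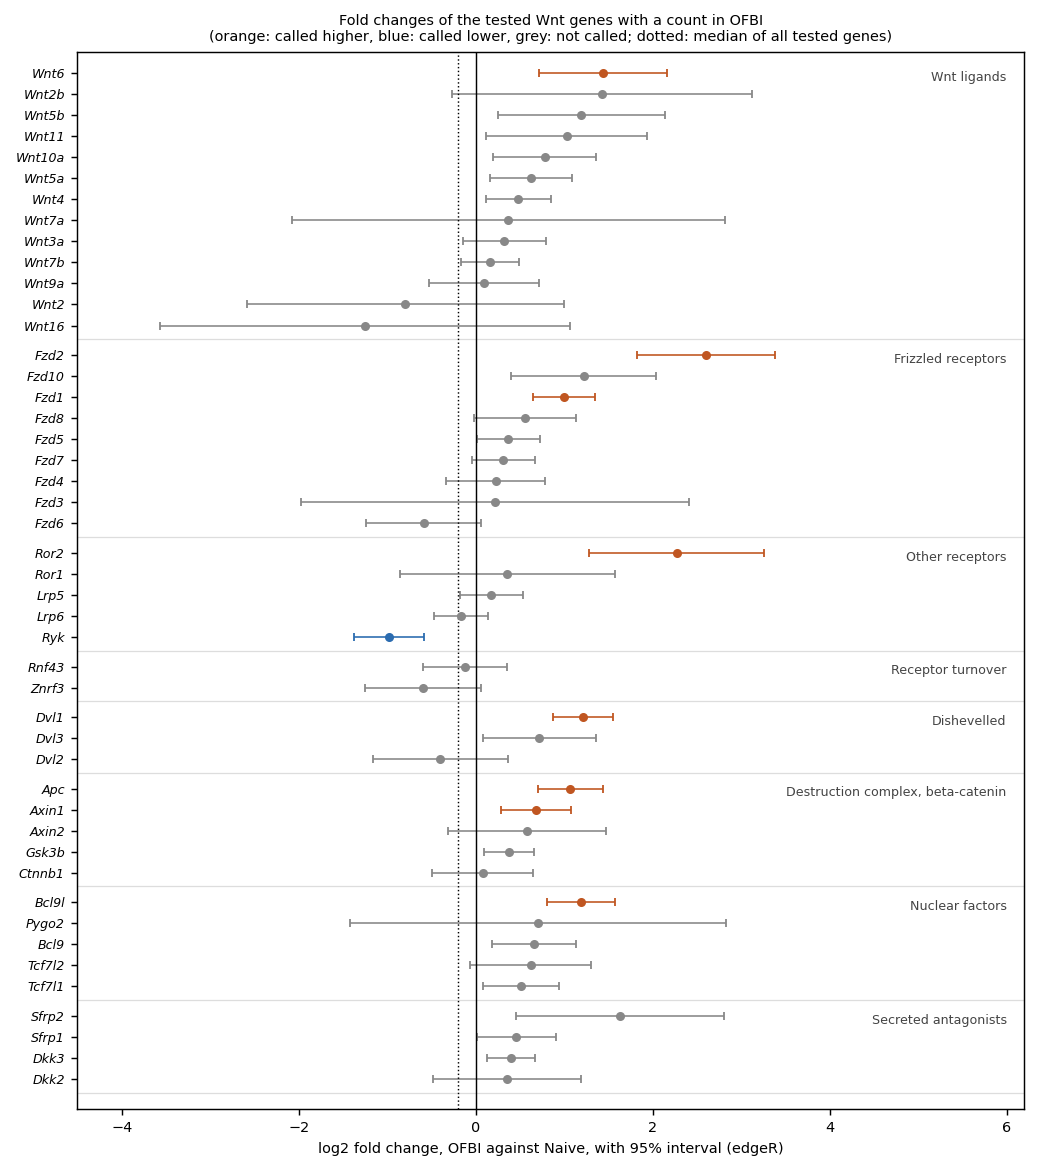
Log2 fold change of OFBI against Naive with its 95% interval (edgeR) for the 46 tested Wnt genes that had a count in OFBI, grouped by role. Most points lie to the right of 0 and of the dotted median of all tested genes (-0.20), and Ryk is the 1 gene called lower among those drawn.

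Among the ligands, Wnt6 rose. This gene is expressed by surface ectoderm and its derivatives during development. It had 14.2, 13.9 and 13.5 CPM in the Naive libraries and 52.2, 27.9 and 31.8 CPM in the OFBI libraries. Every OFBI value was well above every Naive value. Its log2 fold change was 1.44 (standard error 0.31, adjusted p = 0.0247 by edgeR), and 0.58 after correction for GC content and length (adjusted p = 0.270 by edgeR). Wnt6 lies on chromosome 1 at 74771892 to 74785322 (GRCm38), 6193 bases from Wnt10a, another ligand gene. Wnt10a had 65.2 to 70.2 CPM in Naive and 138, 75.2 and 133 CPM in OFBI corneas, with a log2 fold change of 0.78 that did not pass (edgeR adjusted p = 0.0676). The values of both neighbours were thus higher in every OFBI library, with OFBI replicate 2 the lowest of the 3 for each. Wnt3a and Wnt9a, also neighbours with 16175 bases between them, overlapped between the groups. OFBI replicate 2 was the highest OFBI library for Wnt9a (92.2 CPM).

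Wnt4 and Wnt7b had the highest mean levels per length among the ligand genes. Wnt4 had 73.9 ± 5.22 CPM per kilobase of exon in Naive and 103 ± 17.1 in OFBI corneas (SD, n = 3). Wnt7b had 44.1 ± 1.92 in Naive and 49.2 ± 5.88 CPM per kilobase in OFBI corneas (SD, n = 3). Together with Wnt10a, Wnt9a and Wnt3a they led the order of group means in both groups, but Wnt10a lay above Wnt7b in OFBI replicates 1 and 3. Neither Wnt4, with a log2 fold change of 0.48 (95% interval 0.12 to 0.85, edgeR adjusted p = 0.0715), nor Wnt7b, with one of 0.16 (-0.17 to 0.49, edgeR adjusted p = 0.469), passed the test. Of the total ligand level per length in a library, Wnt4 made up 34.9% ± 2.01 in Naive and 35.9% ± 4.89 in OFBI corneas (SD, n = 3). Wnt6 made up 2.99% ± 0.04 in Naive and 5.83% ± 1.59 in OFBI corneas (SD, n = 3, exact two-sided permutation p = 0.1, the smallest that 3 against 3 libraries allow).

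Of the β-catenin-independent ligand genes, Wnt5a had 45.9, 49.4 and 56.6 CPM in Naive and 93.0, 65.3 and 75.8 CPM in OFBI corneas. Wnt5b had 6.18, 8.41 and 8.55 CPM in Naive and 21.6, 19.2 and 11.2 CPM in OFBI corneas. In both genes the OFBI values lay above the Naive values without overlap, and neither passed the test (edgeR adjusted p = 0.0670 and 0.0824). Wnt11 showed the same order, with 7.39 to 14.3 CPM in Naive and 16.6 to 28.1 CPM in OFBI corneas. Wnt2 had 21.8 to 24.4 CPM in Naive corneas and 17.9, 19.5 and 0 CPM in OFBI corneas, the 0 being OFBI replicate 3, the shallowest library. The tested genes Wnt2b, Wnt7a and Wnt16 stayed below 2 CPM in every Naive library.

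**Figure D3:**
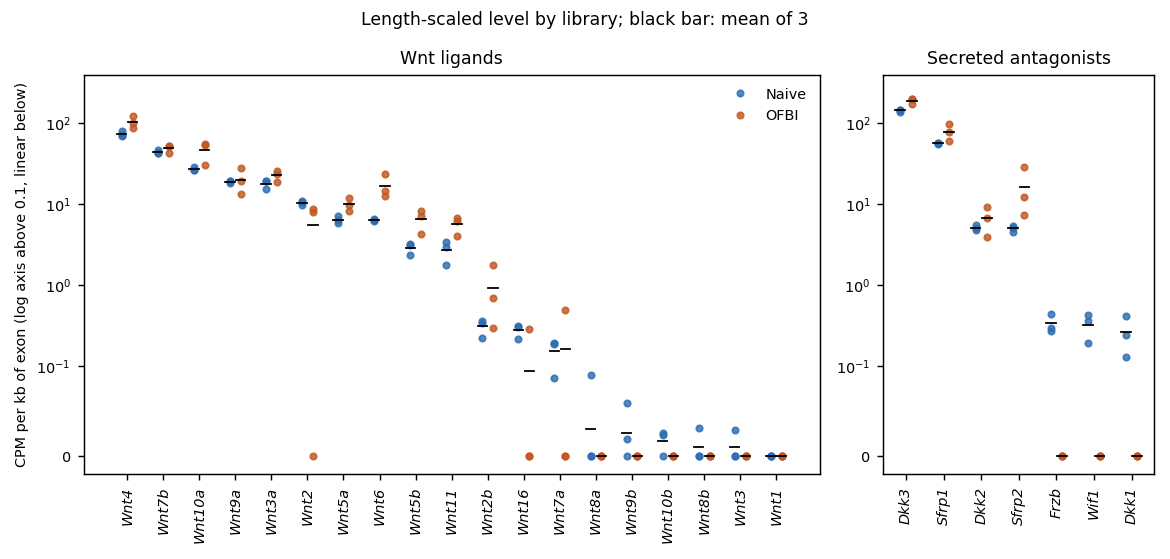
CPM per kilobase of exon of each ligand gene (left) and secreted antagonist gene (right) by library, ordered by the Naive mean, on an axis that is logarithmic above 0.1. Wnt4 and Dkk3 lead their panels in both groups, and 6 ligand genes and 3 antagonist genes have no count in any OFBI library.

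Another 6 ligand genes were not tested. Wnt1 had no count in any library, and Wnt3, Wnt8a, Wnt8b, Wnt9b and Wnt10b had at most 12 estimated counts in any Naive library and none in the OFBI libraries. Their Naive levels lay far under the OFBI floor, so a difference in them was not detectable at this depth. The other untested members were Fzd9, with 15 to 20 estimated counts in the Naive libraries and 6, 0 and 0 in the OFBI libraries, and Dkk1, with 16 to 47 and none.

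In the Frizzled family, Fzd2 and Fzd1 rose. Fzd2 and Fzd1 belong to a closely related branch of the family with Fzd7. Fzd2 had 23.4, 22.1 and 28.2 CPM in Naive and 93.4, 136 and 224 CPM in OFBI corneas. Every OFBI library was thus more than 3 times the highest Naive library. Its log2 fold change was 2.61 (standard error 0.33, adjusted p = 0.00893 by edgeR), and 2.30 after correction for GC content and length (adjusted p = 0.0158 by edgeR). Fzd1 had 62.7, 69.4 and 70.2 CPM in Naive and 123, 134 and 148 CPM in OFBI corneas. These groups were also far apart, with a log2 fold change of 1.00 (standard error 0.15, adjusted p = 0.0114 by edgeR). Fzd7, the third gene of that branch, had 83.6 ± 8.95 CPM in Naive and 104 ± 6.17 CPM in OFBI corneas (SD, n = 3) and did not pass (log2 fold change 0.31, 95% interval -0.05 to 0.67, edgeR adjusted p = 0.204). Fzd2 lies on chromosome 11 at 102604396 to 102608058 and Fzd1 on chromosome 5 at 4753839 to 4758035 (GRCm38).

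Fzd6 was the most abundant Frizzled gene in Naive corneas. It encodes a receptor known for planar polarity of epithelium and hair. It had 275, 272 and 281 CPM in Naive and 115, 258 and 178 CPM in OFBI corneas. All OFBI values were lower, but their spread was wide, and the log2 fold change of -0.59 (95% interval -1.24 to 0.06) did not pass (edgeR adjusted p = 0.189). Fzd5, a receptor known for its part in eye development, was second, with 174 to 181 CPM in Naive and 206 to 273 CPM in OFBI corneas, and did not pass (edgeR adjusted p = 0.141).

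The makeup of the Frizzled family was read within each library, so that it needs no scaling between libraries. Shares are parts of a whole, so a rise of Fzd2 and Fzd1 lowers the share of Fzd6 even at an unchanged level. The shares were not corrected for GC content. Fzd6 made up 40.9% ± 0.92 of the Frizzled level per length in Naive and 19.5% ± 6.10 in OFBI corneas (SD, n = 3). Fzd2 made up 4.77% ± 0.50 in Naive and 20.8% ± 5.92 in OFBI corneas (SD, n = 3). The shares of Fzd1 were 11.5% ± 0.43 and 16.8% ± 1.73 (SD, n = 3). For each of these 3 genes the shares of the groups did not overlap (exact two-sided permutation p = 0.1 for each, the smallest that this design allows). Fzd6 thus led every Naive library, while in OFBI replicate 1 Fzd5, in replicate 2 Fzd6 and in replicate 3 Fzd2 had the highest share.

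**Figure D4:**
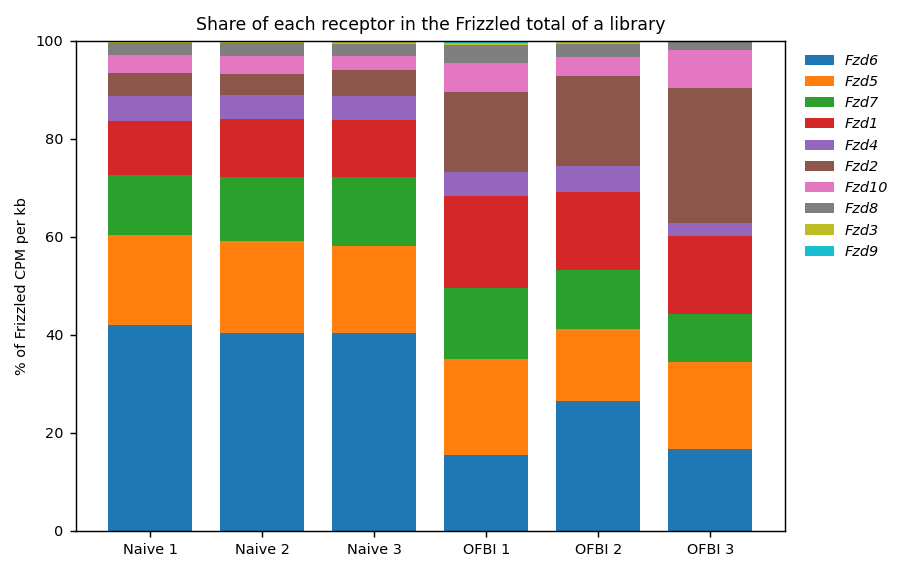
Share of each Frizzled gene in the summed Frizzled CPM per kilobase of exon, in percent, for each library. Fzd6 holds 40.4% to 42.0% in the 3 Naive libraries and 15.4% to 26.5% in the OFBI libraries, and Fzd2 holds 4.32% to 5.31% and 16.4% to 27.5%.

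The remaining Frizzled genes did not pass the test. Fzd10 came closest, with 16.6, 16.4 and 13.6 CPM in Naive and 29.1, 26.3 and 56.1 CPM in OFBI corneas (log2 fold change 1.22, edgeR adjusted p = 0.0502). Its groups did not overlap, and OFBI replicate 3 was the highest. Fzd3, Fzd4 and Fzd8 had log2 fold changes of 0.22, 0.23 and 0.55, and Fzd3 had no count in OFBI replicate 3.

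Receptors outside the Frizzled family went in both directions. Ror2 encodes a receptor tyrosine kinase that binds WNT5A. It had 4.41, 3.80 and 4.87 CPM in Naive and 25.3, 13.8 and 24.3 CPM in OFBI corneas. Its OFBI values were all more than 2 times every Naive value, with a log2 fold change of 2.27 (standard error 0.42, adjusted p = 0.0187 by edgeR). The counts behind it were 82, 43 and 26 in the OFBI libraries. The related receptor gene Ror1 had 3.36 to 5.11 CPM in Naive and 3.84 to 6.80 CPM in OFBI corneas and did not pass (log2 fold change 0.36, 95% interval -0.86 to 1.57).

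Ryk, which encodes an atypical Wnt receptor with an inactive kinase domain, fell. It had 95.6, 98.6 and 100.5 CPM in Naive and 54.7, 42.3 and 53.3 CPM in OFBI corneas. The OFBI values were close to each other and 0.51 times the Naive mean on average, with a log2 fold change of -0.98 (standard error 0.17, adjusted p = 0.0158 by edgeR). Within the 5 receptors of this kind Ryk made up 41.2% ± 0.31 of the level per length in Naive and 23.7% ± 1.83 in OFBI corneas (SD, n = 3, exact two-sided permutation p = 0.1). The genes of the β-catenin co-receptors overlapped between the groups. Lrp5 had log2 fold change 0.18 (95% interval -0.18 to 0.54) and Lrp6 had -0.17 (95% interval -0.47 to 0.14). The ubiquitin ligase genes Znrf3 and Rnf43, which remove Frizzled receptors from the cell surface, had log2 fold changes of -0.59 (95% interval -1.25 to 0.06) and -0.12 (95% interval -0.60 to 0.35). Neither passed, although Znrf3 was lower in each OFBI library (33.1, 40.7 and 20.6 CPM) than in any Naive library (43.0 to 55.8 CPM).

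Of the Dishevelled genes, which encode the adaptors that carry the signal from Frizzled into the cell, Dvl1 rose. It had 68.2, 64.9 and 62.5 CPM in Naive and 144, 143 and 168 CPM in OFBI corneas. Both groups were tight, and the log2 fold change was 1.22 (standard error 0.14, adjusted p = 0.00782 by edgeR), or 0.58 after correction for GC content and length (adjusted p = 0.0424 by edgeR). Dvl1 is on chromosome 4 at 155847402 to 155859303 (GRCm38) and overlaps Tas1r3 on the other strand. Dvl3 had 35.4 to 55.6 CPM in Naive and 56.0 to 96.3 CPM in OFBI corneas and did not pass (log2 fold change 0.72, edgeR adjusted p = 0.113). Dvl2 had a log2 fold change of -0.40 (95% interval -1.16 to 0.36), with groups that overlapped, and its gene overlaps Acadvl on the other strand. Since the strand setting is not known, reads of such partners cannot be told apart, which holds for Dvl1 and Tas1r3, for Ctnnb1 and Ulk4 and for Wnt5b and Fbxl14 as well.

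In the destruction complex, the scaffold genes Apc and Axin1 rose. Apc encodes a large tumour suppressor that holds β-catenin in the complex. It had 116, 99.7 and 106 CPM in Naive and 191, 255 and 230 CPM in OFBI corneas. The groups were well apart, with a log2 fold change of 1.07 (standard error 0.16, adjusted p = 0.0112 by edgeR) that was 1.32 after correction for GC content and length. Axin1 had 82.2, 73.9 and 66.7 CPM in Naive and 119, 104 and 135 CPM in OFBI corneas. Its log2 fold change of 0.68 (standard error 0.17, adjusted p = 0.0349 by edgeR) was the smallest among the genes that rose, and 0.37 after correction for GC content and length (adjusted p = 0.164 by edgeR). Axin1 was called in 5 of the 11 alternatives that used every library, and its highest adjusted p over them was that 0.164.

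Axin2, a feedback scaffold that is also a standard readout of β-catenin activity, did not pass. It had 20.7, 17.1 and 16.0 CPM in Naive and 36.2, 29.1 and 13.1 CPM in OFBI corneas. OFBI replicates 1 and 2 lay above all Naive libraries and OFBI replicate 3, with 14 estimated counts, lay below them. Its log2 fold change was 0.58 (95% interval -0.31 to 1.47, edgeR adjusted p = 0.336). Ctnnb1, the β-catenin gene, overlapped between the groups, with 392 to 458 CPM in Naive and 296 to 594 CPM in OFBI corneas (log2 fold change 0.08, 95% interval -0.50 to 0.65). Gsk3b had 398 to 412 CPM in Naive and 489 to 576 CPM in OFBI corneas, without overlap, and did not pass (log2 fold change 0.37, edgeR adjusted p = 0.0725).

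Among the nuclear factors, Bcl9l rose. BCL9L and BCL9 are scaffolds that link β-catenin to PYGO proteins in the nucleus. Bcl9l had 466, 368 and 328 CPM in Naive and 943, 894 and 817 CPM in OFBI corneas. The groups did not overlap, and the log2 fold change was 1.19 (standard error 0.16, adjusted p = 0.00990 by edgeR). With a GC and length trend removed it was 0.43 (edgeR adjusted p = 0.265). Bcl9l lies on chromosome 9 at 44482825 to 44511896 (GRCm38) and overlaps Cxcr5 on the other strand, so reads could be shared where strand was not used in counting. Bcl9 had a log2 fold change of 0.66, Tcf7l1 one of 0.51 and Tcf7l2 one of 0.62, and none of them passed (edgeR adjusted p = 0.0608, 0.0968 and 0.186).

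Pygo2, which encodes the reader that BCL9 proteins bind, varied within both groups. It had 92.4, 17.8 and 17.4 CPM in Naive replicates 1, 2 and 3 and 146, 39.1 and 17.8 CPM in OFBI replicates 1, 2 and 3. Replicate 1 was the high library in each group, and the SD was as large as the mean in both. Its log2 fold change of 0.70 had a 95% interval of -1.42 to 2.82.

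The secreted antagonists were led by Dkk3 and Sfrp1, and none of them passed as higher in the edgeR test. Dkk3 encodes a divergent member of the Dickkopf family and had 494, 494 and 469 CPM in Naive and 665, 587 and 665 CPM in OFBI corneas. The OFBI values were all higher, and the test was narrowly missed (log2 fold change 0.40, 95% interval 0.12 to 0.67, edgeR adjusted p = 0.0546). Dkk3 passed as higher under other settings, with adjusted p = 0.00054 by DESeq2, 0.0440 by limma-voom and 0.0499 after correction for GC content and length in edgeR, while with library size only it was 0.281. Sfrp1, which encodes a secreted Frizzled-like decoy, had 243 to 251 CPM in Naive and 338, 261 and 426 CPM in OFBI corneas (edgeR adjusted p = 0.140). Per length Dkk3 made up 68.1% ± 0.37 and Sfrp1 26.7% ± 0.22 of the antagonist level in Naive corneas, and 65.9% ± 6.02 and 26.6% ± 2.50 in OFBI corneas (SD, n = 3).

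Sfrp2 had 9.76, 11.0 and 11.6 CPM in Naive and 26.6, 15.7 and 61.7 CPM in OFBI corneas. Its values were higher in every OFBI library, with a wide spread, and did not pass (log2 fold change 1.63, 95% interval 0.46 to 2.81, edgeR adjusted p = 0.0621). Dkk2, the antagonist known for its part in corneal fate, had 17.8 to 20.2 CPM in Naive and 25.3, 14.4 and 34.6 CPM in OFBI corneas. The groups overlapped (log2 fold change 0.36, 95% interval -0.48 to 1.19). Frzb had 0.968, 0.884 and 1.43 CPM in Naive corneas and no count in OFBI corneas. It was called lower (edgeR adjusted p = 0.0359), but its Naive mean was 0.68 times the OFBI floor, so the difference was not detectable at this depth. Wif1, with a Naive mean 0.49 times the floor and no count in OFBI, did not pass (edgeR adjusted p = 0.0545).

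RefSeq promoters (GRCm38.p6) were found for 40 of the 56 Wnt genes and 6 of the 10 called ones. They are shown for every called gene with an entry whose difference was detectable, 4 that rose and Ryk, which fell, so that genes moving in opposite directions can be compared. Each line gives the 250 bases before the start of the gene, 5′ to 3′ on the strand of the gene. Capitals mark the GC box, GGGCGG or CCGCCC on the other strand, and the TATA motif, TATAAA or TTTATA on the other strand. The Fzd1 window is chr5:4758217-4758466 on the minus strand, and its RefSeq start is not the start of a GENCODE transcript. The Wnt6 window is chr1:74771642-74771891 on the plus strand, that of Ror2 chr13:53286125-53286374 on the minus strand, that of Dvl1 chr4:155847152-155847401 on the plus strand and that of Ryk chr9:102834670-102834919 on the plus strand.
Wnt6: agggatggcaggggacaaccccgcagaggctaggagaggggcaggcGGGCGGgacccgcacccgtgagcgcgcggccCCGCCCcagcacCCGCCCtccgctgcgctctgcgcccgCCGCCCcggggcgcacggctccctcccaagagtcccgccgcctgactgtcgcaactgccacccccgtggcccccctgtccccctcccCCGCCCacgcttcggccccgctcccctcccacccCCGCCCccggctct
Fzd1: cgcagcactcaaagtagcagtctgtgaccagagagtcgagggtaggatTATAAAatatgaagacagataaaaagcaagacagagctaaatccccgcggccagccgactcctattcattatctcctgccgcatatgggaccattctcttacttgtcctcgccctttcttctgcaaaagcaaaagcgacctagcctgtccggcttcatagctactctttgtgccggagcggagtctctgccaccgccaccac
Ror2: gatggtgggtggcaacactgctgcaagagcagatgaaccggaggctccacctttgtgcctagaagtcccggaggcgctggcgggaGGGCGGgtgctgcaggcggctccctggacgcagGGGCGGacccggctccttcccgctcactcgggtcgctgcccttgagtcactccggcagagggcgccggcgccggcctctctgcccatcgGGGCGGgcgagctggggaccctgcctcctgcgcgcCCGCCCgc
Dvl1: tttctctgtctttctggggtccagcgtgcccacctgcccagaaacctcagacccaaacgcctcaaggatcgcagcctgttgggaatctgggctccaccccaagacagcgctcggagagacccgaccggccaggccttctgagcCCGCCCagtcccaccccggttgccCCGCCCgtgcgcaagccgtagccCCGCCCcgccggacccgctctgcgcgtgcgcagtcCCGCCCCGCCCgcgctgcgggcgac
Ryk: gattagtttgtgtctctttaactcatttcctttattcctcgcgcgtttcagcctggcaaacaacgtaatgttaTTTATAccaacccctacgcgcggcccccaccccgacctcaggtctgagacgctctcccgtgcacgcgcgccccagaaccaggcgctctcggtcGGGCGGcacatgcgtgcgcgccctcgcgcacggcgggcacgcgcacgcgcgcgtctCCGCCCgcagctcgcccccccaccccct

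Wnt6 held 6 GC boxes, Dvl1 5 with an overlapping pair among them, Ror2 4, Ryk 2 and Fzd1 0. The GC content of these windows was 79.6%, 71.2%, 73.2%, 65.2% and 51.2%, where the median of all 32851 RefSeq promoters was 52.4%. At least 1 GC box was present in 35 of the 48 promoters listed for the 40 Wnt genes and in 32.7% of all promoters of that length. Ryk held a TATA motif on the other strand, 177 bases before the start, and Fzd1 one on its own strand, 202 bases before it. Such a motif was present in 9 of the 48 promoters and in 12.4% of all promoters. The TCF motif, CTTTGAA or CTTTGAT on either strand, was in the windows of Dkk1, Wnt11 and Wnt5b (3 of the 48) and in 7.48% of all promoters. None of the 6 called genes with an entry held it, which says only that these letters are not in this window. GC boxes thus occurred in genes that rose and in Ryk, and were missing from Fzd1, which rose.

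Other genes of the pathway, outside the 56, were read from a list of 69, of which 58 were tested. Of these, 7 rose (12.1%, against 8.41% of all tested genes) and 5 were called lower (8.62%, against 10.4%). Their median log2 fold change was -0.14, against -0.20 over all tested genes. Among 9 tested nuclear regulators, Tle3, Tcf7, Tle1 and Lef1 rose and none was lower, or 44.4% and 0% against the same 8.41% and 10.4%. Tle3, a co-repressor of TCF factors, had 144, 134 and 117 CPM in Naive and 436, 443 and 380 CPM in OFBI corneas, without overlap. Its log2 fold change was 1.68 (standard error 0.14, adjusted p = 0.0053 by edgeR). Tle1, a related co-repressor, had a log2 fold change of 1.55 (SE 0.40), and Tcf7, a TCF factor also typical of T cells, one of 2.72 (SE 0.55).

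The Tcf7 and Lef1 counts were low, with 43, 24 and 19 for Tcf7 and 16, 17 and 10 for Lef1 in the OFBI libraries. Genes of T cells were higher in the same libraries. Of 7 tested lymphocyte markers 6 rose (85.7%, against 8.41% of all tested genes) and none fell (against 10.4%). The 6 were Cd3e, Cd3d, Cd3g, Cd2, Cd4 and Zap70. The summed level of the 10 markers read, tested or not, was 4.64 to 6.32 CPM in Naive and 31.4 to 178 CPM in OFBI corneas. The B cell markers Cd79a and Ms4a1 had no count in OFBI corneas and were not called. Their Naive levels were not set against the OFBI floor. The part of lymphocyte RNA in the Tcf7 and Lef1 values was not tested.

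Among 17 cytoplasmic regulators, Dact3 and Gsk3a rose and Csnk1a1 fell. These shares of 11.8% and 5.88% are near the 8.41% and 10.4% of all tested genes. Dact3, which encodes an antagonist that binds Dishevelled, had a log2 fold change of 2.29 (SE 0.46), and Gsk3a, the sister kinase of Gsk3b, one of 0.71 (SE 0.16). Csnk1a1, the kinase that primes β-catenin for GSK3, had 271, 265 and 268 CPM in Naive and 161, 111 and 181 CPM in OFBI corneas (log2 fold change -0.83, SE 0.19, edgeR adjusted p = 0.0304). Of 15 tested genes commonly cited as β-catenin targets, Ccnd1, Tcf7 and Lef1 rose and Lgr5 and Notum were called lower. Ccnd1, which encodes cyclin D1, had 845, 796 and 787 CPM in Naive and 1256, 1530 and 1258 CPM in OFBI corneas (log2 fold change 0.74, SE 0.13, edgeR adjusted p = 0.0164). The calls were 20.0% higher and 13.3% lower of the 15, against 8.41% and 10.4% of all tested genes. Both lower ones were under the OFBI floor. The median log2 fold change of the 15 was -0.23, against -0.20 over all tested genes, and 6 of the 15 were positive. All OFBI libraries lay above all Naive libraries for 4 genes, Ccnd1, Tcf7, Lef1 and Nkd1. They lay below them for 4, Lgr5, Notum, Cd44 and Jun. Nkd1, Cd44 and Jun did not pass. The list thus did not rise as a whole. Myc, with a log2 fold change of 0.07, did not pass.

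Of 8 tested genes of Wnt secretion and R-spondin signalling, Lgr5 and Notum were called lower (2 of 8, against 10.4% of all tested genes) and none rose (against 8.41%). Both had no count in OFBI corneas and a Naive level under the OFBI floor, so their difference was not detectable at this depth. The same holds for Sfrp4, the 1 call among 3 tested further antagonists (33.3% lower, against 10.4% of all tested genes). Celsr3 was the 1 call among 12 planar polarity genes (8.33% lower and none higher, against 10.4% and 8.41% of all tested genes). It had no count in OFBI corneas and was at least 1.55-fold lower, taking 3 fragments in all OFBI libraries together as the limit. The Wnt carrier gene Wls had a log2 fold change of -0.29 (SE 0.20) and did not pass.

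Marker genes of several cell types also differed between the groups. The shares below stand against 8.41% of all tested genes called higher and 10.4% called lower. Of 9 corneal epithelium markers 4 rose (44.4%), Krt12, Krt5, Krt14 and Krt15, and 2 fell (22.2%), Cdh1 and Trp63. Their summed level was 30581 to 31964 CPM in Naive and 60708 to 79315 CPM in OFBI corneas. Of 9 keratocyte markers 4 rose (44.4%), Thy1, Col1a1, Col1a2 and Col5a1, and 2 fell (22.2%), Dcn and Ptgds. The sum of the 9 was 1502 to 2006 CPM in Naive and 4783 to 6759 CPM in OFBI corneas. Their median log2 fold change was -0.28, with 4 of the 9 positive, so the list did not rise as a whole. Of 6 tested corneal endothelium markers 3 fell (50.0%) and none rose, with 1220 to 1258 and 1065 to 1126 CPM. Of 6 tested hepatocyte markers 5 rose (83.3%) and none fell, with 59.2 to 78.5 and 222 to 1117 CPM. Of 4 tested conjunctiva and goblet cell markers, conjunctival Krt13 and Krt4 rose and the goblet cell gene Agr2 was called lower. The goblet cell genes Muc5ac and Tff1 were not tested. These 3 goblet cell genes had no count in OFBI corneas, and their Naive levels were not set against the OFBI floor. Of 9 muscle markers Myh6, Tnnt2 and Tnni3 rose (33.3%), and of 8 macrophage markers C1qa, C1qb and C1qc (37.5%). None in these 2 lists was called lower. Lens markers summed to 158 to 182 CPM in Naive and 390 to 586 CPM in OFBI corneas, where 1 of 5, Cryaa, rose (20.0%). Iris and pigment cell markers summed to 179 to 194 and 28.1 to 139 CPM. Of the 6, Tyr was called lower and none had a positive log2 fold change. Schwann cell markers summed to 299 to 346 and 117 to 236 CPM. Of the 5, Mbp fell and none was called higher, while 3 had a positive log2 fold change (median of the list 0.62). Vascular markers summed to 19.1 to 24.0 and 21.5 to 40.3 CPM. Of 4 tested, Tek was called lower and none higher, and 2 had a positive log2 fold change. Tyr and Tek had no count in OFBI corneas, and their Naive levels were not set against the OFBI floor. The part of these cell types in the Wnt gene values was not tested.

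The edgeR calls needed all 3 Naive libraries. Without Naive replicate 1, 2 or 3, edgeR called 1, 0 and 0 of the 10 genes, and 0.876%, 0% and 0.859% of all tested genes. The 1 gene was Bcl9l. Frzb was not tested then, and the other 9 had an unadjusted p below 0.05 each time (21.6%, 20.2% and 21.6% of all tested genes). Their fold changes stayed about as large: over all libraries left out in turn, the log2 fold change was 2.22 to 2.82 for Fzd2 and 1.13 to 1.28 for Dvl1. DESeq2 without Naive replicate 1, 2 or 3 called 9, 8 and 8 of the 10 (15.2%, 12.3% and 13.6% of all tested genes). Without OFBI replicate 1, 2 or 3 edgeR called 8, 9 and 10 of the 10 (14.4%, 20.6% and 24.7% of all tested genes). The number of Wnt genes that rose was 14 without OFBI replicate 2 (9.16% of all tested genes) and also 14 without OFBI replicate 3 (10.8%), which then included Axin2.

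**Figure D5:**
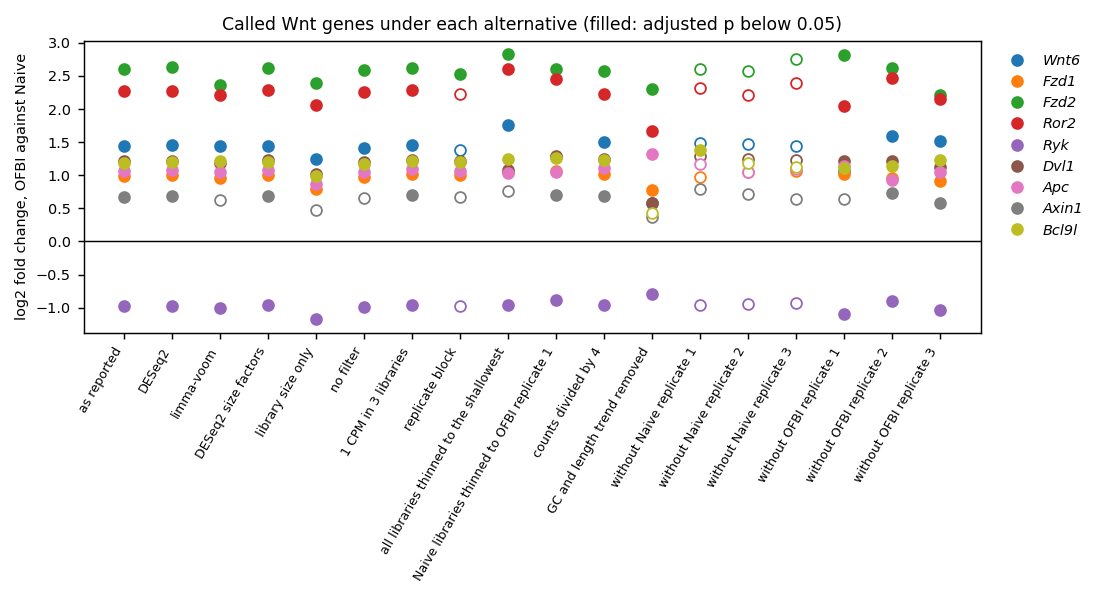
Log2 fold change of the 9 called Wnt genes with a count in OFBI (Frzb is left out) as reported, under each alternative with all libraries, and in edgeR fits without each library, filled where the adjusted p was below 0.05. The direction of all 9 is the same in every column, while in the 3 columns that leave out a Naive replicate, all edgeR fits, the 1 filled circle is Bcl9l without replicate 1.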

How the data were processed

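RNA of 3 OFBI and 3 Naive libraries of pooled corneas was measured, from 2 µg of RNA per sample with a stranded kit, per the labels' protocols. StringTie, HISAT2, FastQC, DESeq2 and the build GRCm38 are listed, per the submitters' processing notes, without roles. The gene models, the strand setting and how reads with several matches were treated are not stated there. What the authors deposited are estimated counts per gene, not scaled for depth. Multiples of 4 made up 39.4% to 50.4% of values from 1 to 40, from which about 4 counts per fragment were inferred. Rows sharing a symbol, 64 on 31 symbols, were summed, and no Wnt gene was among them.

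The quasi-likelihood test of edgeR 4.0.16 (R 4.3.3, two-sided) compared the groups over all genes passing filterByExpr, with TMM scaling, and p-values were adjusted over them by Benjamini-Hochberg at 0.05. SE is the fold change divided by the root of F. CPM are scaled by TMM, and levels per kilobase use the union of exons of GENCODE mouse release 21 on GRCm38, which also gave coordinates. Floors are 12 counts over a group and cover counting error only. The replicates are pools called biological replicates by the series text, and p-values measure the spread between these pools. The members and lists were chosen with earlier results of these data known. Named by rule are all called members, all untested ones, the 2 most abundant per length of each role, any above the floor in Naive with no OFBI count (none was), and in each list of other pathway genes the 3 calls with the smallest p. All further named genes were chosen after their values were seen. Promoter motifs were searched on both strands. The tests were checked on simulated data. Alternatives were DESeq2 1.42.0, limma-voom (limma 3.58.1), other scalings and filters, a replicate block, thinning, division by 4, a GC and length trend (mgcv 1.9.3) and leaving out each library. DESeq2 with each library left out was added after the data were seen. One lymphocyte marker is not reported here.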

Additional observations from a re-analysis of the deposited data

How the results depend on the processing

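Counts of Wnt genes called higher and lower were 8 and 2 as reported. DESeq2 gave 20 and 1, limma-voom 8 and 1, counts divided by 4 gave 16 and 1, no filter 7 and 1, a filter of 1 CPM in 3 libraries 8 and 1, library size only 7 and 3, all libraries thinned to the shallowest 8 and 1, and Naive libraries thinned to OFBI replicate 1 gave 9 and 1. For other pathway genes (7 and 5 as reported) library size only gave 4 and 11, limma-voom 3 lower, no filter 2, the 1 CPM filter 3, thinning 1 and 2, division by 4 gave 2, and the GC and length correction 4 higher. The number of calls over all genes also differed by setting. DESeq2 called 3675 and edgeR 2619 as reported, limma-voom 2267, and edgeR after division by 4 called 2868. No filter gave 1853, the 1 CPM filter 2260, library size only 2904 and the GC and length correction 2074. Thinning all libraries to the shallowest gave 1384, and thinning Naive libraries to OFBI replicate 1 gave 1634.

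Leaving out each library in turn, edgeR called 0 to 14 Wnt genes higher and 0 to 2 lower, and 0 to 10 and 0 to 7 other pathway genes. With DESeq2, chosen after seeing the data, leaving out OFBI replicate 1, 2 or 3 gave 16, 22 and 24 Wnt genes higher, with 2, 4 and 2 lower. Leaving out a Naive replicate gave 11, 7 and 7 higher and 1 lower each time. Over all genes these DESeq2 fits called 4512, 5149 and 5210 without OFBI replicate 1, 2 or 3. Without Naive replicate 1, 2 or 3 they called 1845, 1489 and 1651 of all genes. For other pathway genes DESeq2 gave 12 higher and 11 lower without OFBI replicate 2, 12 and 9 without OFBI replicate 3, and 1 lower without each Naive replicate. The cause of these shifts was not tested.

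Replicate numbers did not pair the libraries: deviations of same-numbered libraries correlated at -0.03, -0.05 and 0.02 over 9087 genes. With the replicate block 5 Wnt genes were higher and 0 lower, with 2 and 0 other pathway genes, and 793 of all genes.

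Apc, Dvl1, Fzd1 and Fzd2 kept their call in all 11 alternatives that used every library. Of the 48 tested Wnt genes 38 had a log2 fold change above 0 as reported, 33 after the GC and length correction, 34 with library size only and 36 with the replicate block. Among the genes named by rule, 5 that were not called turned direction. The log2 fold change of Ctnnb1 was -0.12 with library size only, -0.22 without OFBI replicate 2 (-0.22 to 0.29 over libraries left out) and -0.18 with DESeq2 without it. Lrp5 was at -0.024 with library size only and -0.059 after the GC and length correction, Wnt7b at -0.040 and -0.46, and Tcf7l1 at -0.092 after that correction. Rnf43 was at 0.029 with all libraries thinned and 0.027 with DESeq2 without OFBI replicate 2. In OFBI replicate 3 the floor of 12 counts was 11.2 CPM, which limits genes such as Wnt2 and Fzd3.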
